A study of Mus musculus with 6 samples.

Results

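A set of 10 genes of the antioxidant and redox system were followed through thyroid organoids in which an oncogenic Braf was switched on and then countered with kinase inhibitors. They were taken by symbol from the count table: the transcription factor gene Nfe2l2 (NRF2), its repressor Keap1, the target genes Hmox1, Nqo1, Gclc, Gclm, Txnrd1, Srxn1 and Gsr, and the NADPH oxidase gene Nox4. These are 10 of the 25239 genes listed, and all 10 are among the 15256 genes that passed the filter on low counts. The organoids were differentiated from a mouse embryonic stem cell line (G4 RosaLuc) carrying TRE-Nkx2-1-Pax8 and bTg-NES-BrafV637E-ERT2, a selected clone in which doxycycline induces Nkx2-1 and Pax8. The bovine thyroglobulin promoter (bTg) drives BrafV637E fused to a tamoxifen-responsive receptor domain (ERT2), so by design the oncogene is made in thyroglobulin-expressing cells and is active with 4-hydroxytamoxifen (4OHT). All 6 libraries carried this transgene, received 8-Br-cAMP and were collected at day 31 after follicle enrichment. The control group (cAMP) received no 4OHT, the 4OHT group received 1 µM 4OHT for 5 days, and the PD+LY group received 250 nM of the MEK inhibitor PD0325901 and 5 µM of the PI3K inhibitor LY204002 together with 4OHT for 3 days. By the methods of the study the inhibitors came after 4 days of 4OHT alone. PD+LY and 4OHT may thus also differ in days of 4OHT, and the inhibitors and that length of exposure cannot be told apart. No library had 4OHT without the transgene, so effects of 4OHT itself and of the oncogene cannot be told apart here. No library had the inhibitors without 4OHT or 1 inhibitor alone, and the inhibitors are not limited to the cells that make the oncogene. Each group had 2 libraries of pooled wells, and nothing says that they came from separate differentiations, so the p-values measure only the spread between these libraries, which may be technical.

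NRF2 is a transcription factor that KEAP1 holds in the cytoplasm and delivers for degradation. Oxidants and electrophiles modify KEAP1, and the NRF2 that escapes enters the nucleus, pairs with small MAF proteins and binds antioxidant response elements (AREs). Its targets make glutathione, keep thioredoxin and glutathione reduced, inactivate quinones and break down heme, and because the switch works on the protein, the Nfe2l2 transcript need not follow the activity of the factor. In the thyroid the balance matters in an unusual way, since follicular cells make hydrogen peroxide on purpose for hormone synthesis and must contain it.

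The libraries held 14898409 to 20637959 counts, and replicates differed by more than counting error in every group. All 10 thyroid follicular markers were above the floor of 3 counts in every library. Their summed level, in counts scaled by library size (CPM), was 1110 to 1660 under cAMP, 575 to 767 under 4OHT and 1000 to 2000 under PD+LY. Markers of other cells were present too, the 9 pluripotency genes summing to 3920 to 4440 CPM over the 6 libraries. The 10 mesenchymal markers summed to 1210 to 1310 CPM under cAMP, 2260 to 2380 under 4OHT and 4110 to 4850 under PD+LY. The 10 epithelial markers summed to 1150 to 1260, 916 to 1030 and 826 to 870 CPM in the same order. Single mesenchymal markers moved both ways with PD+LY. At an adjusted p under 0.05 in edgeR, 4 were higher and 3 lower against 4OHT, and 5 and 2 against cAMP. In bulk RNA, fewer cells of a type and less RNA per cell cannot be told apart, and the part of these shifts in the results for the redox genes was not tested.

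Against the cAMP control, 2 of the 10 genes were lower with 4OHT and none was higher, where a gene is called at an adjusted p under 0.05 in edgeR's quasi-likelihood test with Benjamini-Hochberg adjustment over all genes tested. The background was 4.35% of all genes called lower and 4.04% called higher. At an unadjusted p under 0.05, 3 members were lower and 1 higher, and DESeq2 called 2 lower and 0 higher. With PD+LY on top of 4OHT, 4 members fell and 2 rose, against 12.1% of all genes called lower and 10.7% called higher. Between PD+LY and cAMP, 4 members were lower and 3 higher, against 13.7% and 12.1% of all genes. The median log2 fold change of the members was -0.02, -0.25 and -0.10 in these 3 comparisons, beside 0.00, 0.01 and 0.00 for all genes tested. The 3 comparisons share groups, so they are not independent of each other.

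**Figure D1:**
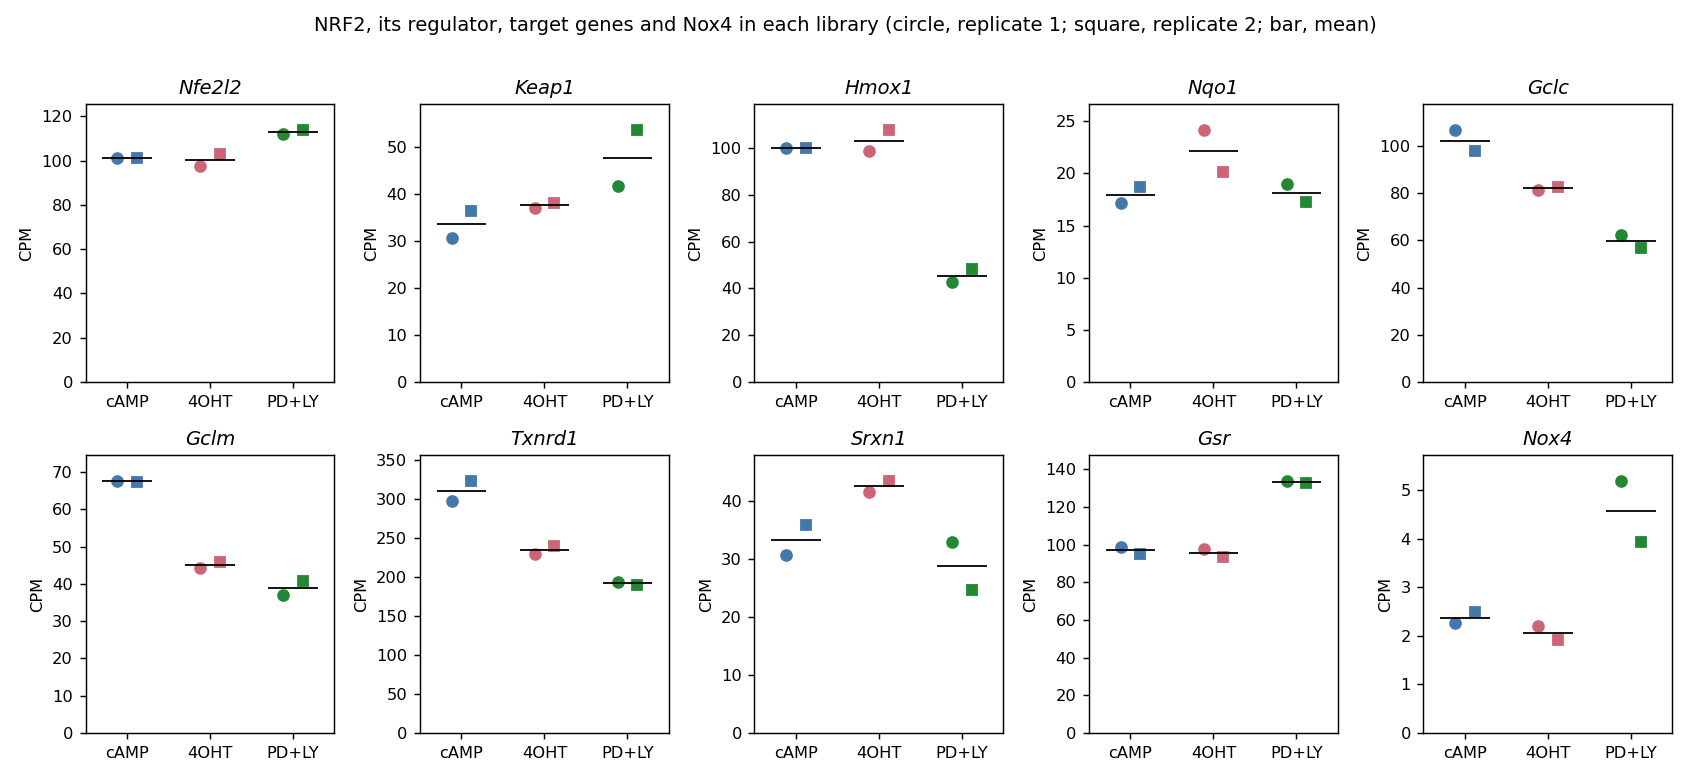
Level of each of the 10 genes in CPM (vertical axes from 0) in the 2 libraries of each group; the horizontal bar is the group mean. Hmox1 lies between 98.7 and 108 CPM in the 4 libraries without inhibitors and between 42.7 and 48.2 in PD+LY, Gsr and Nox4 are highest in PD+LY, and Gclc, Gclm and Txnrd1 step down from cAMP to 4OHT to PD+LY.

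The promoter windows that hold an ARE core or an AP-1 site (the site bound by FOS and JUN factors downstream of MAPK signalling) are shown here, because the genes they belong to moved in different ways. RefSeq windows on GRCm38.p6, from 250 bases before to 50 bases after an annotated start, were found for 7 of the 10 genes (9 windows), and Hmox1, Gclc and Gsr had no entry. The letters TGACNNNGC (ARE core) and TGANTCA (AP-1 site) were searched on both strands. The ARE pattern began with TGAC only, so stretches beginning with TGAG were not counted as ARE cores. The ARE core was in 4 of the 9 windows, in 22 of 119 windows of the other redox genes (18.5%) and in 12.4% of all 32851 windows. The AP-1 letters were in 1, in 12 (10.1%) and in 7.81% respectively. No matches of these 2 patterns, as searched, overlapped in the members' windows. Stretches before the start are printed 5′ to 3′ along the gene, with the matched letters in capitals:
Nfe2l2, chr2:75704865-75704913, minus strand: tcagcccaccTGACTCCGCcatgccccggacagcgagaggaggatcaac
Gclm, chr3:122245393-122245461, plus strand: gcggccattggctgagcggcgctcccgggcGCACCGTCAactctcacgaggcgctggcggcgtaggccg
Txnrd1, chr10:82859084-82859152, plus strand: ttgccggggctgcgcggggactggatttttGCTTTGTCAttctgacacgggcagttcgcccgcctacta
Srxn1, chr2:152105392-152105515, plus strand: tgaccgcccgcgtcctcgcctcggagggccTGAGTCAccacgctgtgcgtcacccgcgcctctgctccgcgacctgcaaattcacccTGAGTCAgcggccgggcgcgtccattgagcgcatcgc
The capitals in Nfe2l2, Gclm and Txnrd1 are ARE cores, those of Gclm and Txnrd1 lying on the other strand, and begin 240, 134 and 92 bases before the start. The 2 capital runs in Srxn1 are AP-1 letters, beginning 102 and 45 bases before the start, and its ARE core lies at position 29 after the start. The run that begins 45 bases before the start reads TGAGTCA and is followed by gc. It thus has a TGAG form that the ARE pattern left out. In GENCODE M21 the Nfe2l2 stretch overlaps an exon of E030042O20Rik on the opposite strand. The Txnrd1 stretch belongs to the second of 3 annotated starts and lies in an intron of the gene's longest form, and the other stretches are intergenic. Keap1, Nqo1 and Nox4 had no match in their windows. A match is a description of letters and no evidence of binding.

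Of the sensor pair, Nfe2l2 was not called in any of the 3 comparisons and Keap1 was called between PD+LY and cAMP. Nfe2l2 (chr2:75675513-75704641, minus strand) measured 101 and 101 CPM under cAMP, 97.7 and 103 under 4OHT and 112 and 114 under PD+LY. The cAMP libraries lay within the range of the 4OHT libraries and the PD+LY libraries lay above both groups. The log2 fold change was -0.01 ± 0.09 (SE, adjusted p = 0.96, 95% interval -0.19 to 0.17) for 4OHT against cAMP and 0.18 ± 0.09 (adjusted p = 0.186, interval 0.00 to 0.36) for PD+LY against 4OHT, and neither passed the threshold. The 95% intervals here and below are a normal approximation from the SE, narrower than the quasi-likelihood test implies. On that approximation neither interval reaches beyond 0.36 on the log2 scale in either direction.

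Keap1 (chr9:21229730-21239361, minus strand), the adaptor that presents NRF2 to a ubiquitin ligase, measured 30.5 and 36.4 CPM under cAMP, 37.0 and 38.0 under 4OHT and 41.6 and 53.6 under PD+LY. The groups did not overlap, but the replicates of PD+LY and of cAMP stood well apart. Keap1 rose by a log2 fold change of 0.51 ± 0.15 from cAMP to PD+LY (adjusted p = 0.0231). The steps from cAMP to 4OHT (0.16 ± 0.15, adjusted p = 0.549) and from 4OHT to PD+LY (0.35 ± 0.15, adjusted p = 0.105) did not pass. The rise from cAMP to PD+LY lost its call without cAMP replicate 1 (0.39, adjusted p = 0.167) or PD+LY replicate 2 (0.31, adjusted p = 0.118). The step from 4OHT gained one without PD+LY replicate 1 (0.52, adjusted p = 0.017). Of the exon bases of Keap1, 10.87% are shared with Gm16754 on the opposite strand, and reads were counted without regard to strand.

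Of the other 11 regulators of NRF2 listed, 1 rose (Btrc) and 1 fell (Bach2) with 4OHT. With PD+LY against 4OHT, 4 rose (Bach1, Btrc, Gsk3b and Nfe2l1) and 2 fell (Maff and Mafk). With PD+LY against cAMP, 2 rose (Btrc and Nfe2l1) and 2 fell (Maff and Sqstm1). Of all genes, 4.04% were called higher and 4.35% lower with 4OHT. With PD+LY these shares were 10.7% and 12.1% against 4OHT, and 12.1% and 13.7% against cAMP. Btrc, which encodes the substrate receptor of a KEAP1-independent ligase for NRF2, measured 70.2 and 65.7 CPM under cAMP, 92.4 and 88.9 under 4OHT and 112 and 119 under PD+LY. It rose with 4OHT (log2 fold change 0.42 ± 0.10, adjusted p = 0.023) and was highest in PD+LY (0.77 ± 0.10 against cAMP, adjusted p = 0.000169). The small MAF genes encode the binding partners of NRF2. Mafk fell with PD+LY against 4OHT (-0.74 ± 0.14, adjusted p = 0.00255) and so did Maff (-0.76 ± 0.16, adjusted p = 0.00628), while Mafg did not pass (0.13 ± 0.14, adjusted p = 0.552). Bach1, the repressor that competes with NRF2 at AREs and silences Hmox1, rose in the same comparison (0.42 ± 0.10, adjusted p = 0.00994). It averaged 103 CPM under cAMP, 82.4 under 4OHT and 110 under PD+LY. Between PD+LY and cAMP it was not called (0.10 ± 0.10, adjusted p = 0.508). The call of Btrc with 4OHT was lost without any 1 of the 4 libraries compared (0.37 to 0.46, adjusted p from 0.0943 to 0.218). Its call with PD+LY against 4OHT was lost without 4OHT replicate 1 (0.38, adjusted p = 0.114) or 2 (0.32, adjusted p = 0.196). Bach1 lost its call without 4OHT replicate 1 (0.43, adjusted p = 0.0847) or 2 (0.42, adjusted p = 0.108), and Maff without 4OHT replicate 2 (-0.51, adjusted p = 0.122). In the same comparison Gsk3b and Nfe2l1 lost theirs without either 4OHT library (0.24 to 0.56, adjusted p from 0.105 to 0.23). Bach2 lost its call with 4OHT in DESeq2 (adjusted p = 0.0537) and in 3 of the 4 fits without 1 library compared (-0.96 to -0.58, adjusted p from 0.192 to 0.367), and Sqstm1 its call against cAMP in every fit without 1 library but PD+LY replicate 2 (-0.36 to -0.19, adjusted p from 0.0844 to 0.275). Mafg, Bach1, Gsk3b and Sqstm1 lie outside the rule for naming genes and were chosen after their values were seen.

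Hmox1 and Nox4 had the largest fold changes among the members in the fit of all 6 libraries. Hmox1 (chr8:75093621-75100589, plus strand) encodes heme oxygenase 1, the inducible enzyme that opens heme and releases iron. It measured 100 and 100 CPM under cAMP, 98.7 and 108 under 4OHT and 42.7 and 48.2 under PD+LY. The cAMP and 4OHT libraries overlapped, and both PD+LY libraries lay below all others. With 4OHT the log2 fold change was 0.04 ± 0.10 (adjusted p = 0.85, 95% interval -0.16 to 0.24). With PD+LY it fell by 56.0% against 4OHT (log2 fold change -1.18 ± 0.11, adjusted p = 2.73e-05) and by 54.7% against cAMP (-1.14 ± 0.11, adjusted p = 1.98e-05), and both calls held without each library in turn.

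The other 8 genes of heme and iron handling had 1 gene called higher and 1 called lower with 4OHT. Among all genes, 4.35% were called lower and 4.04% higher with 4OHT. With PD+LY these shares were 12.1% and 10.7% against 4OHT, and 13.7% and 12.1% against cAMP. Of these 8 heme and iron genes, 4 were lower and 0 higher for PD+LY against each of the other groups, at an adjusted p under 0.05 in edgeR. None was higher in edgeR at an unadjusted p under 0.05 or in DESeq2 in those comparisons, with 4 and 3 lower against 4OHT and 4 and 4 against cAMP. Those lower against 4OHT included Fth1 (-0.96 ± 0.09, adjusted p = 2.57e-05) and Ftl1 (-0.64 ± 0.11, adjusted p = 0.00145), the ferritin chains that store iron. The others were Tfrc, the transferrin receptor (-0.60 ± 0.17, adjusted p = 0.0272), and Blvrb, a biliverdin reductase (-0.44 ± 0.12, adjusted p = 0.0177). The iron exporter gene Slc40a1 (ferroportin) averaged 30.4 CPM under cAMP (493 and 610 counts), 9.18 under 4OHT (123 and 185 counts) and 6.83 under PD+LY (169 and 104 counts). It dropped already with 4OHT (-1.72 ± 0.22, adjusted p = 0.000762). Ftl1 shares 34.63% of its exon bases with other annotated genes and belongs to a family with near-identical copies, so its level is uncertain. Against 4OHT, Tfrc lost its call in DESeq2 (adjusted p = 0.142) and without 4OHT replicate 1 (-0.67, adjusted p = 0.0774), 4OHT replicate 2 (-0.51, adjusted p = 0.183) or PD+LY replicate 2 (-0.33, adjusted p = 0.0996). Blvrb lost it without 4OHT replicate 1 (-0.51, adjusted p = 0.0605) or 2 (-0.35, adjusted p = 0.207). Fth1, Ftl1, Tfrc and Blvrb were chosen after their values were seen. Heme is also broken down by macrophages and made by red cells. The 12 macrophage markers summed to 70.9 to 71.0 CPM under cAMP, 60.7 to 69.4 under 4OHT and 33.7 to 35.2 under PD+LY, and 4 of the 12 were at or above the floor in every library. Ptprc, Adgre1, C1qa, C1qb and C1qc had no count in any library. The 7 erythroid markers summed to 2.39 to 3.59 CPM under cAMP, 1.37 to 1.47 under 4OHT and 0.611 to 0.973 under PD+LY, with 1 of the 7 at or above the floor in every library and Hba-a1, Hbb-bs and Hbb-bt at no count. Both sums were lowest in PD+LY, as were Hmox1 and the ferritin genes, and their part in these results was not tested.

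Glutathione is made by glutamate-cysteine ligase, whose catalytic subunit Gclc and modifier subunit Gclm are both NRF2 targets, and both ended lower in PD+LY than in cAMP. Gclc (chr9:77754535-77794485, plus strand) measured 107 and 97.8 CPM under cAMP, 81.5 and 82.8 under 4OHT and 62.4 and 56.9 under PD+LY. Gclm (chr3:122245557-122270732, plus strand), whose ARE core is printed above, measured 67.7 and 67.3 CPM under cAMP, 44.2 and 46.0 under 4OHT and 37.1 and 40.9 under PD+LY. In both genes the 3 groups did not overlap and stood in the same order. Gclm took the larger step with 4OHT (log2 fold change -0.58 ± 0.11, adjusted p = 0.00863), where Gclc did not pass (-0.32 ± 0.10, adjusted p = 0.0799). Gclc fell with the inhibitors (-0.46 ± 0.10, adjusted p = 0.00796), where Gclm did not pass (-0.21 ± 0.11, adjusted p = 0.196). Whether the steps of the 2 genes differ from each other was not tested. From cAMP to PD+LY the changes were -0.78 ± 0.10 for Gclc (adjusted p = 0.000219) and -0.79 ± 0.11 for Gclm (adjusted p = 0.000328), and these held without each library in turn.

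The call of Gclm with 4OHT was lost without any 1 of the 4 libraries compared, with adjusted p from 0.0511 to 0.137 and log2 fold changes from -0.61 to -0.55. That of Gclc with PD+LY against 4OHT was lost without 4OHT replicate 1 (-0.47, adjusted p = 0.0651) or replicate 2 (-0.45, adjusted p = 0.0932). Gclc gained a call with 4OHT without PD+LY replicate 1 or 2 (both -0.32, adjusted p = 0.0254 and 0.0262). Of the exon bases of Gclm, 8.58% overlap Gm6061 and Gm17494.

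Gsr (chr8:33652523-33698163, plus strand), the reductase that regenerates glutathione with NADPH, moved the other way. It measured 98.9 and 94.9 CPM under cAMP, 97.7 and 93.3 under 4OHT and 134 and 133 under PD+LY. The cAMP and 4OHT libraries overlapped and PD+LY lay above them. The log2 fold change was -0.02 ± 0.09 with 4OHT (adjusted p = 0.92, 95% interval -0.20 to 0.16), 0.49 ± 0.09 with PD+LY against 4OHT (adjusted p = 0.00312) and 0.47 ± 0.09 against cAMP (adjusted p = 0.00317). The rise against 4OHT lost its call without 4OHT replicate 2 (0.46, adjusted p = 0.068).

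The 4 other genes of glutathione synthesis and recycling were all called with PD+LY against 4OHT, 3 of them lower and 1 higher. In that comparison 12.1% of all genes were called lower and 10.7% higher. Gss, the synthetase that completes glutathione, rose from 39.4 to 56.5 mean CPM (0.52 ± 0.14, adjusted p = 0.0165). Slc7a11 (-0.50 ± 0.17, adjusted p = 0.049) and Slc3a2 (-0.52 ± 0.10, adjusted p = 0.00268), the chains of the cystine importer, fell. Ggt1, which cleaves glutathione outside the cell, fell further (-1.43 ± 0.22, adjusted p = 0.000893). With 4OHT the only called gene of the 4 was Slc3a2, which was higher (0.35 ± 0.10, adjusted p = 0.0408). Of all genes, 4.04% were called higher and 4.35% lower with 4OHT. Slc3a2 lost its call with 4OHT without any 1 of the 4 libraries compared (0.29 to 0.42, adjusted p from 0.084 to 0.295), and with PD+LY against 4OHT without 4OHT replicate 2 (-0.48, adjusted p = 0.0512). In that comparison Gss lost its call without 4OHT replicate 2 (0.40, adjusted p = 0.203) or PD+LY replicate 2 (0.38, adjusted p = 0.058). Slc7a11 lost it in DESeq2 (adjusted p = 0.0775) and in every fit without a library other than PD+LY replicate 1 (-0.55 to -0.37, adjusted p from 0.0652 to 0.265). Gss and Slc7a11 were chosen after their values were seen.

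Txnrd1 (chr10:82833951-82897712, plus strand), the cytosolic thioredoxin reductase, had the highest CPM of the members and fell at both steps. It measured 298 and 324 CPM under cAMP, 230 and 240 under 4OHT and 194 and 190 under PD+LY. The groups did not overlap. The log2 fold change was -0.40 ± 0.09 with 4OHT (adjusted p = 0.0164), -0.29 ± 0.09 with PD+LY against 4OHT (adjusted p = 0.033) and -0.70 ± 0.09 against cAMP (adjusted p = 0.000161). The last held without each library in turn. The call with 4OHT was lost without any 1 of the 4 libraries compared (-0.46 to -0.34, adjusted p from 0.054 to 0.207). That with PD+LY against 4OHT was lost without any library of cAMP or 4OHT (-0.32 to -0.26, adjusted p from 0.0552 to 0.245) and with only these groups in the fit (adjusted p = 0.0528).

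Srxn1 (chr2:152105516-152111376, plus strand), which encodes sulfiredoxin, the enzyme that rescues over-oxidised peroxiredoxins, measured 30.6 and 35.8 CPM under cAMP, 41.6 and 43.5 under 4OHT and 32.9 and 24.6 under PD+LY. The 4OHT libraries were the highest, and the PD+LY and cAMP libraries overlapped. The rise with 4OHT did not pass (0.36 ± 0.15, adjusted p = 0.177, 95% interval 0.06 to 0.65). The drop with PD+LY against 4OHT did (-0.57 ± 0.15, adjusted p = 0.0191), and PD+LY against cAMP did not (-0.21 ± 0.15, adjusted p = 0.337). Its promoter window, printed above, was the only 1 of the 9 windows found for the members that held AP-1 letters, and Hmox1, Gclc and Gsr had no window to search. The drop lost its call without 4OHT replicate 1 (-0.60, adjusted p = 0.0854), 4OHT replicate 2 (-0.53, adjusted p = 0.142) or PD+LY replicate 2 (-0.37, adjusted p = 0.0673). A decrease against cAMP was called without PD+LY replicate 1 (-0.44, adjusted p = 0.0409).

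Of the other 13 genes of the thioredoxin and peroxiredoxin system, none was called in either direction with 4OHT at an adjusted p under 0.05 in edgeR. At an unadjusted p under 0.05, 1 was higher and 2 lower, and DESeq2 called 0 higher and 1 lower. Of all genes, 4.04% were called higher and 4.35% lower with 4OHT, and 10.7% and 12.1% with PD+LY against 4OHT. In the latter comparison 2 of the 13 rose (Prdx1 and Txn1) and 2 fell (Prdx5 and Txn2). Of these, Prdx1 and Txn2 are outside the naming rule. Without either 4OHT library all 4 lost their calls (0.24 to 0.42 for those that rose and -0.42 to -0.23 for those that fell, adjusted p from 0.0628 to 0.291). Txn1, the thioredoxin that Txnrd1 reduces, measured 271 and 257 CPM under cAMP, 299 and 277 under 4OHT and 356 and 347 under PD+LY. It was thus higher in PD+LY than in cAMP (0.41 ± 0.09, adjusted p = 0.00466) while its reductase was lower.

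Nqo1 (chr8:107388225-107403206, minus strand), the quinone reductase that is among the most used readouts of NRF2 activity, was not called in any comparison. It measured 17.2 and 18.7 CPM under cAMP, 24.2 and 20.1 under 4OHT and 19.0 and 17.3 under PD+LY. The 4OHT libraries lay above the other 4, with their own replicates further apart than those of the other groups. The log2 fold change was 0.30 ± 0.15 with 4OHT (adjusted p = 0.252, 95% interval 0.00 to 0.59) and -0.29 ± 0.15 with PD+LY against 4OHT (adjusted p = 0.188, interval -0.58 to 0.01). It was 0.01 ± 0.15 with PD+LY against cAMP (adjusted p = 0.959, interval -0.28 to 0.31).

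Other genes of quinone, aldehyde and conjugate detoxification did change, 3 of 15 tested being called higher and 3 lower with 4OHT. With PD+LY against 4OHT, 7 were lower and 0 higher (8 and 0 in edgeR at an unadjusted p under 0.05, 7 and 0 in DESeq2). With PD+LY against cAMP, 7 were lower and 1 higher. Of all genes, 4.35% were called lower and 4.04% higher with 4OHT. With PD+LY these shares were 12.1% and 10.7% against 4OHT, and 13.7% and 12.1% against cAMP. Osgin1, an oxidative stress-induced growth inhibitor and NRF2 target, measured 6.04 and 5.99 CPM under cAMP, 11.1 and 13.1 under 4OHT and 2.39 and 1.70 under PD+LY. It thus rose with 4OHT (1.01 ± 0.22, adjusted p = 0.0155) and fell below the control with PD+LY (-2.56 ± 0.24 against 4OHT, adjusted p = 3.75e-05). Akr1b8, an aldo-keto reductase, traced the same course, with a log2 fold change of 0.77 ± 0.18 (adjusted p = 0.023) and then -2.12 ± 0.19 (adjusted p = 3.17e-05). Cbr3, a carbonyl reductase, instead fell from cAMP to 4OHT (-0.65 ± 0.18, adjusted p = 0.0476) and again with PD+LY (-0.90 ± 0.19, adjusted p = 0.00648). All 3 calls with 4OHT were lost without any 1 of the 4 libraries compared. The values then were 0.88 to 1.12 for Osgin1 (adjusted p from 0.0729 to 0.166), 0.69 to 0.84 for Akr1b8 (0.0951 to 0.211) and -0.80 to -0.48 for Cbr3 (0.0779 to 0.296). Cbr3 with PD+LY against 4OHT lost its call without 4OHT replicate 2 (-0.87, adjusted p = 0.0618).

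**Figure D2:**
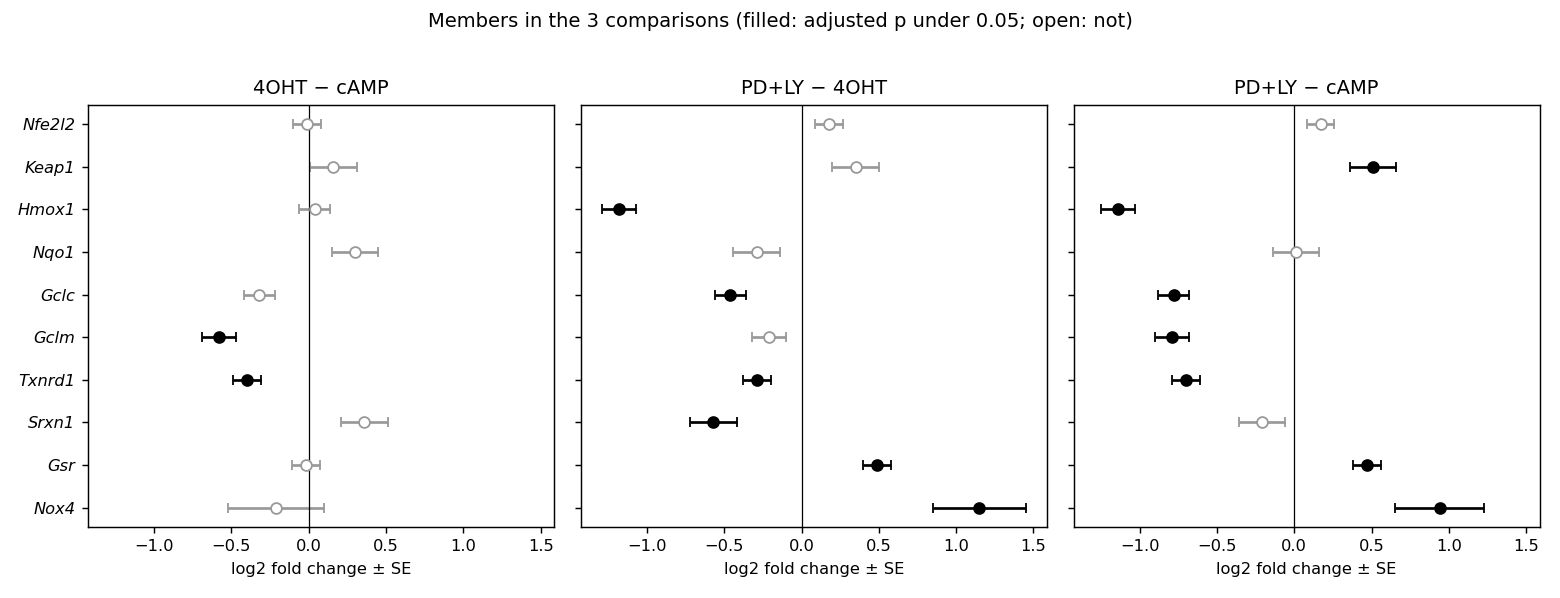
Log2 fold change of each member ± SE (horizontal axis) in the 3 comparisons, from the fit of all 6 libraries; filled points passed an adjusted p of 0.05 and open points did not. Hmox1 sits near 0 with 4OHT and at -1.18 with PD+LY against 4OHT, Gclm and Txnrd1 are the filled points with 4OHT, and Gsr and Nox4 are the filled points to the right of 0 with PD+LY against 4OHT.

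Nox4 (chr7:87246096-87398710, plus strand) encodes an NADPH oxidase that releases hydrogen peroxide, and is the member that makes an oxidant rather than removing one. It was expressed at a low level, with 36 and 51 counts under cAMP, 33 and 35 under 4OHT and 102 and 81 under PD+LY, or 2.26 and 2.49, 2.20 and 1.92, and 5.20 and 3.94 CPM. Both PD+LY libraries lay above the other 4, which were close together. The log2 fold change was -0.21 ± 0.31 with 4OHT (adjusted p = 0.731, 95% interval -0.83 to 0.40). It was 1.15 ± 0.30 with PD+LY against 4OHT (adjusted p = 0.0162) and 0.94 ± 0.29 with PD+LY against cAMP (adjusted p = 0.0323). The rise against 4OHT lost its call without 4OHT replicate 1 (1.25, adjusted p = 0.068), 4OHT replicate 2 (1.05, adjusted p = 0.133) or PD+LY replicate 1 (0.94, adjusted p = 0.0833). That against cAMP lost it in DESeq2 (adjusted p = 0.0803) and without cAMP replicate 1 (0.87, adjusted p = 0.137), cAMP replicate 2 (1.02, adjusted p = 0.102) or PD+LY replicate 1 (0.73, adjusted p = 0.147). Smooth muscle and mesenchymal cells also express Nox4, and all 6 smooth muscle markers rose with PD+LY in both comparisons. Their summed level was 199 to 266 CPM under cAMP, 288 to 299 under 4OHT and 451 to 598 under PD+LY. Their part in the rise of Nox4 was not tested.

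Among the other NADPH oxidase genes, 9 of 13 passed the filter. Cybb, the catalytic subunit NOX2 of the phagocyte oxidase, was called in all 3 comparisons and moved opposite to Nox4 with the inhibitors. It measured 5.79 and 5.36 CPM under cAMP, 10.7 and 9.82 under 4OHT and 2.14 and 2.38 under PD+LY. The log2 fold change was 0.88 ± 0.21 with 4OHT (adjusted p = 0.0236), -2.17 ± 0.23 with PD+LY against 4OHT (adjusted p = 6.94e-05) and -1.30 ± 0.23 against cAMP (adjusted p = 0.00171). The call with 4OHT was lost without any 1 of the 4 libraries compared (0.82 to 0.94, adjusted p from 0.0962 to 0.193). Macrophages are the usual source of Cybb. Their 12 markers, as given above, summed to 33.7 to 35.2 CPM under PD+LY, where Cybb was also lowest. The sum was 70.9 to 71.0 CPM under cAMP and 60.7 to 69.4 under 4OHT, where Cybb was higher than under cAMP. The sum and Cybb thus fell together only with PD+LY. The defining markers Ptprc, Adgre1, C1qa, C1qb and C1qc had no count in any library. The part of the other markers' cells in the values of Cybb was not tested. Cyba, which encodes an oxidase subunit, was called higher with PD+LY against cAMP (0.42 ± 0.12, adjusted p = 0.022). It lost its call without cAMP replicate 1 or 2 or PD+LY replicate 2 (0.29 to 0.49, adjusted p from 0.0563 to 0.145). Duox2, the oxidase of thyroid hormone synthesis, averaged 1.52 CPM under cAMP, 0.982 under 4OHT and 0.705 under PD+LY. It was not called with 4OHT (adjusted p = 0.576) or with PD+LY against 4OHT (adjusted p = 0.601). Cyba and Duox2 were chosen after their values were seen.

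The list of superoxide dismutases and catalase gave at most 1 called gene in each direction in each comparison. Over these comparisons 4.04% to 12.1% of all genes were called higher and 4.35% to 13.7% lower. Sod2, the mitochondrial superoxide dismutase, measured 76.9 and 75.0 CPM under cAMP, 103 and 90.6 under 4OHT and 178 and 166 under PD+LY. The groups did not overlap, and PD+LY was higher than 4OHT (0.83 ± 0.10, adjusted p = 0.000206) and cAMP (1.18 ± 0.10, adjusted p = 1.11e-05). Sod3, the secreted form, fell with PD+LY against 4OHT (-0.96 ± 0.19, adjusted p = 0.00419), a call lost without 4OHT replicate 2 (-0.71, adjusted p = 0.0813). Cat, catalase, fell with 4OHT (-0.31 ± 0.09, adjusted p = 0.0473), a call lost without any 1 of the 4 libraries compared (-0.32 to -0.30, adjusted p from 0.195 to 0.314).

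Of the glutathione peroxidases, transferases and glutaredoxins, 3 of 24 tested were lower and none was called higher with 4OHT at an adjusted p under 0.05 in edgeR (5 lower and 2 higher at an unadjusted p under 0.05, 3 and 0 in DESeq2). In each comparison with PD+LY, 7 were lower and 3 higher. Against 4OHT these were 9 and 8 at an unadjusted p under 0.05, a nearly even balance, and 6 and 3 in DESeq2, and against cAMP 10 and 3, and 6 and 3. The edgeR shares of all genes called lower and higher were 4.35% and 4.04% with 4OHT. With PD+LY they were 12.1% and 10.7% against 4OHT, and 13.7% and 12.1% against cAMP. Gpx2, the epithelial glutathione peroxidase and a known NRF2 target, measured 12.1 and 10.7 CPM under cAMP and 10.2 and 10.6 under 4OHT. Under PD+LY it had 51 and 48 counts, a mean of 2.47 CPM (-2.08 ± 0.21 against 4OHT, adjusted p = 5.79e-05). Like Hmox1, it was not called with 4OHT (-0.13 ± 0.19, adjusted p = 0.728, 95% interval -0.49 to 0.24). The transferase gene Gstt2 measured 25.7 and 30.4 CPM under cAMP, 9.47 and 10.9 under 4OHT and 4.74 and 6.47 under PD+LY, and fell with 4OHT (-1.46 ± 0.18, adjusted p = 0.000738). Gstm3 fell with 4OHT (-1.41 ± 0.21, adjusted p = 0.00213) and rose again with PD+LY (0.91 ± 0.21, adjusted p = 0.00907), although the copies of the Gstm family share sequence and their counts are uncertain. Gstm3 lost its call against 4OHT without 4OHT replicate 1 (0.69, adjusted p = 0.097).

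NADPH feeds both reductases. Of its 8 supply genes, 1 rose and 1 fell with PD+LY against 4OHT, a share near the 10.7% and 12.1% of all genes called. With 4OHT 2 were lower (Me1 and Nnt) and 0 higher, against 4.35% and 4.04% of all genes. With PD+LY against cAMP 2 were lower (G6pdx and Me1) and 1 higher (Taldo1), against 13.7% and 12.1%. Nnt averaged 45.8 CPM under cAMP and 32.9 under 4OHT, a call lost without any 1 of the 4 libraries compared (-0.49 to -0.46). G6pdx averaged 77.7 CPM under cAMP and 54.7 under PD+LY, a call lost without cAMP replicate 2 (-0.45). Taldo1, outside the naming rule, lost its call in every fit without 1 library but that of PD+LY replicate 1 (0.19 to 0.33). Me1, malic enzyme 1 and an NRF2 target, measured 191 and 186 CPM under cAMP, 124 and 149 under 4OHT and 102 and 87.6 under PD+LY. It fell with 4OHT (-0.46 ± 0.11, adjusted p = 0.0257), with PD+LY against 4OHT (-0.53 ± 0.11, adjusted p = 0.00637) and against cAMP (-0.99 ± 0.11, adjusted p = 8.15e-05), and only the last held without each library in turn. Pgd, a dehydrogenase of the pentose phosphate pathway, rose with PD+LY against 4OHT (0.38 ± 0.10, adjusted p = 0.0176), a call lost without 4OHT replicate 1 (0.42, adjusted p = 0.0847) or replicate 2 (0.34, adjusted p = 0.176). The call of Me1 with PD+LY against 4OHT was lost without 4OHT replicate 2 (-0.38, adjusted p = 0.128). Its call with 4OHT was lost without any 1 of the 4 libraries compared (-0.61 to -0.33, adjusted p from 0.0602 to 0.311).

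**Figure D3:**
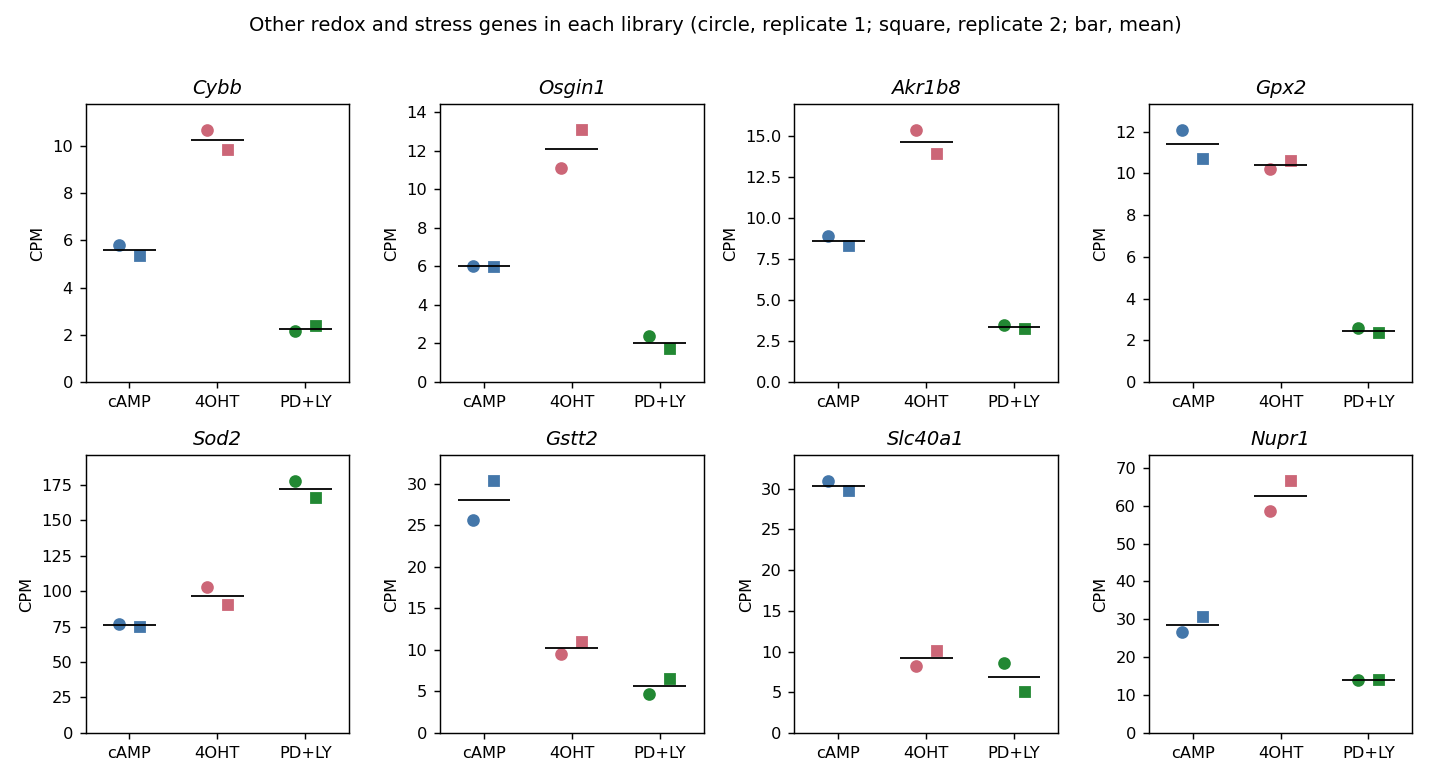
Level in CPM (vertical axes from 0) of 8 further redox and stress genes in the 2 libraries of each group, with the group mean as a bar. Cybb, Osgin1, Akr1b8 and Nupr1 are highest in 4OHT and lowest in PD+LY, Gpx2 drops only in PD+LY, Gstt2 and Slc40a1 drop already with 4OHT, and Sod2 is highest in PD+LY.

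Over the 96 tested genes of the 9 redox lists that are not members, 7 rose and 11 fell with 4OHT, 12 rose and 28 fell with PD+LY against 4OHT, and 12 rose and 26 fell with PD+LY against cAMP. Of all genes, 4.04% were called higher and 4.35% lower with 4OHT. With PD+LY these shares were 10.7% and 12.1% against 4OHT, and 12.1% and 13.7% against cAMP. The median log2 fold change of the 96 genes was 0.01, -0.03 and -0.13, beside 0.00, 0.01 and 0.00 for all genes. Without cAMP replicate 1 or 2 or 4OHT replicate 1 or 2 the number called with 4OHT was 4, 7, 3 or 3 in place of 18. Without 4OHT replicate 1 or 2 the number called with PD+LY against 4OHT was 21 or 13 in place of 40. Over all genes the same fits called 469, 597, 216 or 320 with 4OHT in place of 1280, and 1652 or 1198 with PD+LY against 4OHT in place of 3469, so the loss of calls was general. For the members the same 4 fits called none with 4OHT at an adjusted p under 0.05 in edgeR, with 2 or 3 lower and 0 or 1 higher at an unadjusted p under 0.05. Without 4OHT replicate 1 or 2 the members called were 2 or 1 with PD+LY against 4OHT in place of 6.

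**Figure D4:**
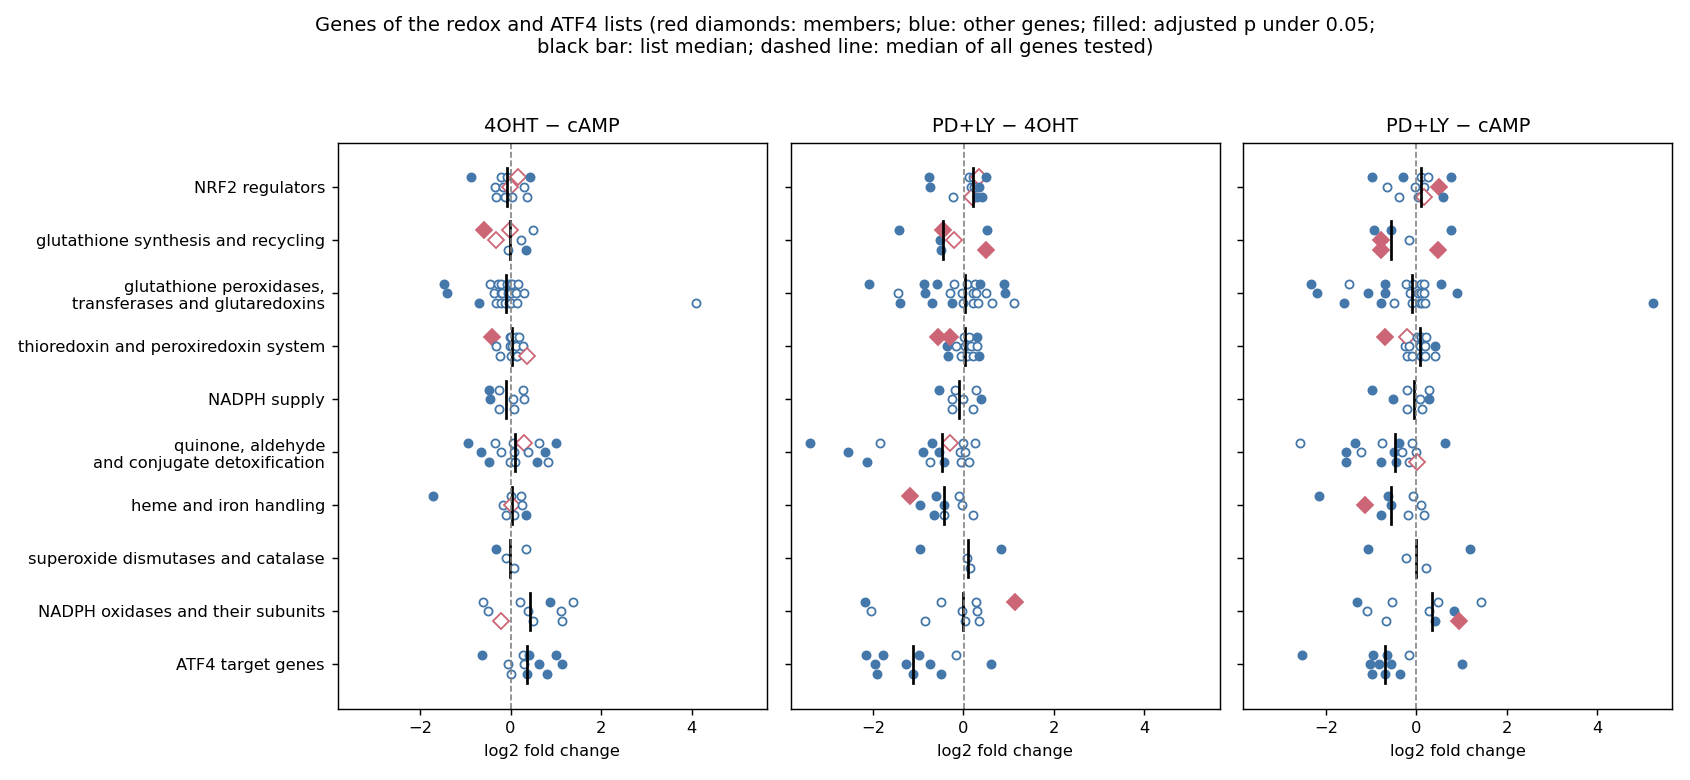
Log2 fold change (horizontal axis) of every tested gene in the 9 redox lists and the ATF4 list, in the 3 comparisons; red diamonds are members, filled symbols passed an adjusted p of 0.05, black bars are list medians and the dashed line is the median of all genes tested. The medians lie between -0.11 and 0.43 with 4OHT. With PD+LY against 4OHT, heme and iron handling (-0.44), glutathione synthesis and recycling (-0.46), quinone detoxification (-0.47) and ATF4 targets (-1.11) lie to the left. The far point on the right is Gsta2, a transferase gene with 1 and 0 counts under cAMP, so that its fold change depends on the prior count of the fit.

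Cystine import and glutathione use are also governed by ATF4, the factor of the amino acid and integrated stress responses, and 11 genes of its program were read beside the members. With 4OHT 6 were called higher (Asns, Chac1, Ddit3, Nupr1, Psat1 and Trib3) and 1 lower (Ddit4). With PD+LY against 4OHT, 9 were lower and 1 higher. The shares of all genes were 4.04% higher and 4.35% lower with 4OHT, and 12.1% lower and 10.7% higher with PD+LY. Nupr1, a stress-response regulator, measured 26.7 and 30.5 CPM under cAMP, 58.6 and 66.6 under 4OHT and 14.0 and 14.1 under PD+LY. Ddit4 averaged 244 CPM under cAMP, 158 under 4OHT and 42.3 under PD+LY. Its call with 4OHT was lost without 4OHT replicate 1 (-0.52). Chac1, which degrades glutathione inside the cell, rose with 4OHT (1.00 ± 0.23, adjusted p = 0.0191), a call lost without cAMP replicate 1 (0.84, adjusted p = 0.135), 4OHT replicate 1 (1.20, adjusted p = 0.057) or 4OHT replicate 2 (0.77, adjusted p = 0.228). It fell with PD+LY against 4OHT (-1.95 ± 0.24, adjusted p = 0.000223). Asns, asparagine synthetase, stood apart, being the gene that rose with PD+LY against 4OHT (0.62 ± 0.09, adjusted p = 0.00062). Asns and Psat1 lost their calls with 4OHT without any 1 of the 4 libraries compared (0.35 to 0.46 and 0.26 to 0.47). Ddit3 and Trib3 lost theirs without cAMP replicate 1 or either 4OHT library (0.58 to 0.69 and 0.65 to 0.84). Of the 6 called higher with 4OHT, only Nupr1 kept its call without each library in turn (1.04 to 1.23). Ddit3, Psat1 and Trib3 lie outside the naming rule. Earlier results of these data on ATF4 targets were known when this list was chosen.

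To compare levels between members, CPM were divided by the exon length of each gene. In cAMP the order by mean CPM per kilobase was Hmox1 (57.3), Txnrd1 (43.9), Gsr (35.2), Gclc (27.2), Nfe2l2 (26.6), Srxn1 (11.8), Nqo1 (11.6), Gclm (10.7), Keap1 (7.12) and Nox4 (0.28). The libraries of Gclc and Nfe2l2 overlapped, as did those of Srxn1 and Nqo1, so these neighbours were not separated. In 4OHT Hmox1 was still highest (58.9), with Gsr (34.7) and Txnrd1 (33.2) overlapping behind it. In PD+LY the order changed at the top: Gsr led (48.6), followed by Nfe2l2 (29.8) and by Txnrd1 (27.1) and Hmox1 (26.0), which overlapped. Nox4 was lowest in every group, reaching 0.539 CPM per kilobase in PD+LY.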

How the data were processed

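Poly(A) RNA of 6 organoid libraries was sequenced as paired-end reads from a stranded kit. The authors trimmed reads with Trimmomatic, mapped them to mm10 with HISAT2 and used HTSeq, ignoring strand, to count them per gene; the deposited values are raw counts per gene symbol, not normalized. Library totals were 14898409 to 20637959 counts. After filterByExpr, with a minimum count of 10 and a minimum total of 15, 15256 genes remained for testing and 9983 were dropped. TMM factors lay between 0.99 and 1.01. A single quasi-likelihood model of the 3 groups was fitted in edgeR 4.0.16 (R 4.3.3), and Benjamini-Hochberg adjustment covered every gene tested. The procedure was tested on simulated data. DESeq2 1.42.0 was an alternative. An exact permutation test of 2 against 2 libraries cannot go below p = 0.333 and was not used. CPM use TMM library sizes, and the floor of 3 counts covers counting error only. Positions and exon overlaps are from GENCODE M21 on GRCm38 (mm10), and promoter windows from RefSeq. The members and gene lists were chosen with earlier results of these data known. In each comparison and list, the naming rule took up to 3 genes past an adjusted p of 0.05 and a 2-fold change with a mean of at least 1 CPM. Where there was none it took up to 2 called genes. Not every result of the genes so taken is described, and genes named beyond this rule were chosen after their values were seen. Some results are not reported here.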

Additional observations from a re-analysis of the deposited data

How the results depend on the processing

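Across the 30 log2 fold changes of the members, 318 of 360 alternative values kept their direction and side of the threshold. The 6 that changed sign were each near 0 and not called: Nfe2l2 with 4OHT was 0.03 without 4OHT replicate 1, Hmox1 with 4OHT -0.02 without 4OHT replicate 2, Nqo1 with PD+LY against cAMP -0.05 without cAMP replicate 1 and -0.06 without PD+LY replicate 1 (highest 0.09, without cAMP replicate 2), and Gsr with 4OHT 0.01 without cAMP replicate 1 and 0.02 without 4OHT replicate 2. Among other named genes Gstm7 with 4OHT was 0.32 without cAMP replicate 1 (lowest -0.57, without cAMP replicate 2) and Sod3 with 4OHT 0.11 without 4OHT replicate 1 (lowest -0.35, without 4OHT replicate 2).

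The members called with 4OHT against cAMP numbered 2, and 4 when only the 2 groups compared were fitted; with each replicate left out in turn they ranged from 0 to 3. Over all genes the number was 1280, and 2307 when only the 2 groups were fitted, and from 216 to 2314 with a replicate left out, so the members moved with the background. With PD+LY against 4OHT they numbered 6 (1 to 6 with a replicate left out), and with PD+LY against cAMP 7 (5 to 7). For the other redox genes the numbers were 18 (3 to 32), 40 (13 to 39) and 38 (28 to 41), and with 4OHT 28 without a filter on low counts and 30 when only the 2 groups compared were fitted. Asking also for a 2-fold change left 0, 2 and 1 members and 4, 7 and 12 of the 96 other redox genes tested. Of all 15256 genes tested, the same rule left 178 higher and 230 lower with 4OHT. It left 359 higher and 748 lower with PD+LY against 4OHT, and 457 and 952 with PD+LY against cAMP.

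The libraries share replicate numbers, but nothing in the labels or methods says that equal numbers came from the same differentiation. Across the genes tested, the deviations of replicate 1 from the group means correlated at 0.0718 between cAMP and 4OHT. The values were 0.207 between cAMP and PD+LY and 0.0586 between 4OHT and PD+LY. With 2 libraries a group these values cannot decide whether equal numbers are paired. With the replicate block the members called were 3, 7 and 7, which adds Gclc with 4OHT (adjusted p = 0.0307) and Keap1 with PD+LY against 4OHT (adjusted p = 0.0338), and the other redox genes called were 32, 47 and 50. Over all genes the block gave 2373, 4742 and 5057 calls in place of 1280, 3469 and 3925, so the gain of calls was general. Having 2 libraries a group limits what small changes can pass, and the cause of these shifts was not tested.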
